A study of Mus musculus with 3530 samples.

Results

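Reporter-read cells of the mouse medial prefrontal cortex were compared between Fear-Only and Context-Only animals. A reporter-read cell is a single cell whose library held a count of 1 or more for the tdTomato transgene. Members were chosen by that count alone, whatever the sorting gate in the cell's title. Of the 3530 cells of the series, 886 met the rule in these conditions, 468 of 841 Fear-Only cells (55.6%) and 418 of 912 Context-Only cells (45.8%). These pooled shares also depend on how many cells of each sorting gate were collected, and they were not tested.

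All animals were TRAP2;Ai14 mice. In TRAP2 mice a tamoxifen-dependent Cre recombinase is made from the Fos locus, and Ai14 carries a tdTomato cassette that Cre switches on permanently. A cell that was active enough to transcribe Fos while tamoxifen was present therefore stays marked, together with all its later transcripts. The medial prefrontal cortex holds excitatory pyramidal neurons in layers and several classes of inhibitory interneurons, and it is one of the regions on which remote fear memory depends. Immediate early genes such as Fos, Arc, Egr1 and Npas4 are switched on within minutes of strong neuronal activity and fade again.

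The tissue was dissociated with papain and each cell was made into its own Smart-seq2 library. The labels name the conditions Fear-Only and Context-Only, with Fear-Recall and Homecage beside them, and give each animal a mouse number from 1 to 5. They hold no dates of training, tamoxifen or recall and no ages, and the meaning of a shared mouse number is not stated. A second Context-Only mouse with the number 5 is called 5b. Animals were the replicates, and the raw counts of their reporter-read cells were summed where 10 or more were present. Fear-Only animal 4, with 4 reporter-read cells, was left out of every test of reporter-read cells, and there was no Context-Only animal 1. This left 4 Fear-Only and 5 Context-Only animals. Each condition within a mouse number was on plates of its own, so that plate and condition cannot be told apart.

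Fear-Only animals 1, 2, 3 and 5 gave 36, 121, 268 and 39 reporter-read cells. Context-Only animals 2, 3, 4, 5 and 5b gave 56, 198, 88, 30 and 46. Values below follow this order of animals, as counts per 1000000 counts of the sum (CPM). The summed libraries held between 17831821 counts (Fear-Only 1) and 219442745 counts (Fear-Only 3). Animals numbered 2 to 4 had been sorted with gates called pos and neg, and between 4 and 10 reporter-read cells in each of them came from the neg gate. Animals numbered 1 and 5 carried no gate in their titles. Reporter-read cells were 100%, 49.2%, 70.3% and 28.3% of all cells of these Fear-Only animals, and 10% in Fear-Only animal 4. They were 26.3%, 71.5%, 52.7%, 28.6% and 30.7% in Context-Only animals, and the groups overlapped. All 36 cells of Fear-Only animal 1 were reporter-read, and they were the shallowest, with a median of 442023 counts per cell.

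The reporter count itself selected the cells, so it is described without a test. The median reporter level per selected cell, scaled to that cell's own counts, was 249, 12.8, 24.9 and 8.82 CPM in Fear-Only animals and 9.79, 23.5, 28.1, 22.2 and 12.5 CPM in Context-Only animals, highest in Fear-Only animal 1. At the edge of the rule, 51 cells had a count of exactly 1 and 41 a count of 2, against 867 cells of the same conditions at 0. The cells with a count of 1 held a median of 6829 genes and 1187121 total counts. The cells at 0 held a median of 5657 genes and 1075926 total counts.

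The cells carried neuronal transcripts. At least 5 of 10 general neuron markers were detected in 885 of the 886 cells, with a median of 10 of 10. At least 4 of 8 excitatory markers were found in 565 cells and 6 of 12 inhibitory markers in 317 cells. At least 5 of 10 markers were present in 69 cells for astrocytes, 7 for oligodendrocytes and 4 for microglia. The astrocyte count was uneven, with 5, 5, 36 and 3 cells in Fear-Only animals (13.9%, 4.13%, 13.4% and 7.69% of their reporter-read cells) and 2, 9, 4, 1 and 4 cells in Context-Only animals (3.57%, 4.55%, 4.55%, 3.33% and 8.70%). Fear-Only animals 1 and 3 had the highest shares, in cells not matched for depth. For oligodendrocyte precursors (3 or more of 6 markers) and for endothelial and mural cells (4 or more of 8) there were 0 cells. These counts of 0 of 886 cells allow a share of up to 0.339% (counting error only).

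Clusters were named excitatory-neuron-like or inhibitory-neuron-like from their marker genes. The inhibitory share of reporter-read cells was 50%, 37.2%, 38.1% and 28.2% in Fear-Only animals. It was 26.8%, 39.4%, 26.1%, 46.7% and 26.1% in Context-Only animals. The groups overlapped over most of their range. Means were 38.4% ± 8.95 (SD, n = 4) and 33.0% ± 9.502 (SD, n = 5), a difference of 5.35 percentage points (exact two-sided permutation test of the animal labels, p = 0.365). The permutation of labels did not use the mouse number as a block. Fear-Only animal 1 held the highest share, and without it the difference was 1.47 points. In the reporter-free cells, where the Fear-Only animals were 2, 3, 4 and 5, the inhibitory share was 30.2% ± 9.18 (SD, n = 4) in Fear-Only and 34.4% ± 5.69 (SD, n = 5) in Context-Only (exact two-sided permutation test, p = 0.476).

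**Figure D1:**
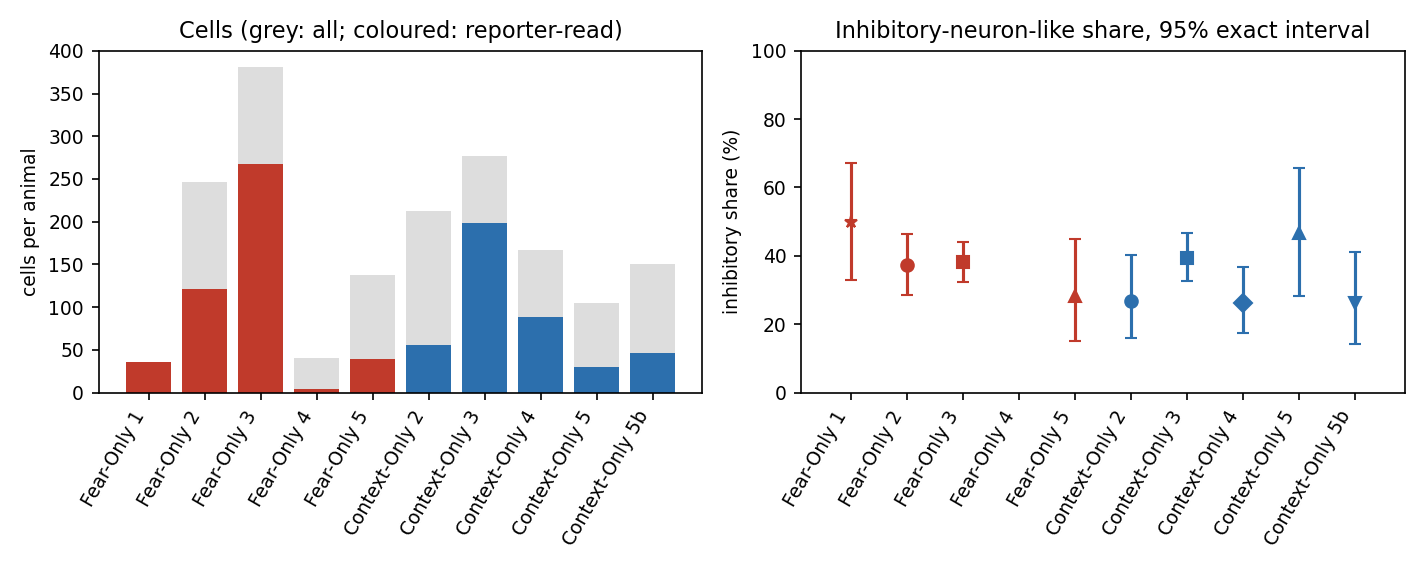
Left, cells per animal, with all cells in grey and reporter-read cells in colour (Fear-Only red, Context-Only blue). Right, inhibitory share of the reporter-read cells in percent, with 95% exact binomial intervals that cover counting error only. The Fear-Only shares, from 28.2% to 50%, overlap the Context-Only shares, from 26.1% to 46.7%.

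Vip cells made up much of the inhibitory part in both conditions. Vip interneurons release vasoactive intestinal peptide and mostly inhibit other interneurons. Cells with 3 or more of 6 Vip interneuron markers were 36.1%, 31.4%, 31.0% and 20.5% of the reporter-read cells of the Fear-Only animals. They were 17.9%, 31.3%, 21.6%, 40% and 19.6% in Context-Only animals, and the groups overlapped. Cells with 3 or more of 6 Sst markers, which mark interneurons that target dendrites, were rare. They were 8.33%, 7.44%, 4.85% and 2.56% of reporter-read cells in Fear-Only and 1.79%, 5.56%, 4.55%, 0% and 0% in Context-Only. The 30 cells of Context-Only animal 5 and the 46 of animal 5b held none, and Fear-Only animal 5, with 39 cells, held 1. Cells with 3 or more Pvalb markers, which mark fast-spiking interneurons, were at most 3.57% in any of these 9 animals.

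The main comparison asked which genes differ between the reporter-read cells of the conditions. None did at the threshold. Of 18670 genes tested with edgeR's quasi-likelihood test on the summed counts, with the mouse number as a block, 0 passed a Benjamini-Hochberg adjusted p of 0.05 (0%), and the smallest adjusted p was 0.9996. At an unadjusted p below 0.05 there were 594 genes. DESeq2 on the same sums called 36 genes (0.193%), 21 higher and 15 lower in Fear-Only, and limma-trend on the mean CPM of the cells called 0. None of those 36 had a mean level of 5 or more on the log2 CPM scale, so they were genes of low level in these sums. The highest of the named genes among them, chosen after its values were seen, was Cntn4, a contactin of the neuronal surface. Cntn4 stood at 9.62, 10.6, 14.2 and 13.5 CPM in Fear-Only and 11.97, 45.8, 20.98, 49.3 and 47.5 CPM in Context-Only animals. Context-Only animal 2 lay among the Fear-Only animals and the other Context-Only animals above them. Its log2 fold change was -1.39 (95% interval -2.02 to -0.76) in edgeR, where it did not pass.

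The missing calls do not show that expression was alike. The intervals give the spread around each fitted difference, not adjusted for the number of genes. Among 5117 genes whose mean log2 CPM was 5 or more, the 95% interval of the log2 fold change reached a median of 0.47 to either side of the fitted value, or 1.39-fold. Larger fitted differences than that still missed the adjusted threshold, that of Srgap3 below among them. For 4530 of them (88.5%) the interval lay within 1 log2 unit of no change. The fitted log2 fold change exceeded 1 in size in 9 of the 5117. Over all genes tested the median log2 fold change (Fear-Only minus Context-Only) was -0.01, and 48.8% of genes lay above 0. Of the 5117 genes of higher level 42.5% lay above 0 (43.1% without Context-Only animal 2), and of those at an unadjusted p below 0.05, 57 (26.4%) were higher and the others lower in Fear-Only. In 66 genes (0.354%) every Fear-Only animal lay above every Context-Only animal, and in 63 (0.337%) every one lay below. Of the 5117 genes, these were 5 and 18.

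One summed library stood apart. Context-Only animal 2 held the highest or the lowest value of the 9 animals in 53.7% of the 5117 genes. Fear-Only animal 1 did so in 35.2% and Context-Only animal 5 in 33.3%, and the other 6 animals in 5.32% to 17.7%. The medians of gene lists over all reporter-read cells are therefore given with and without Context-Only animal 2, except those of microglia, oligodendrocyte precursor, and endothelial and mural markers, for which summed levels are given in place of medians. Log2 fold changes come from fits with the mouse number or the animal as a block, so they can differ from the levels beside them. A log2 fold change is followed by its value without an animal where leaving out that 1 animal moved it by over 1.5 times.

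Among genes with a mean log2 CPM of 5 or more, those of smallest p with higher values in Fear-Only led with Vamp7 and Bcl11b; none of the 14 genes named here passed the test. Vamp7, a vesicle protein of the SNARE fusion machinery, stood at 99.7, 58.6, 64.7 and 93.3 CPM in Fear-Only and 36.7, 55.2, 58.3, 47.5 and 42.1 CPM in Context-Only animals. The lowest Fear-Only animal lay just above the highest Context-Only animal, as in 0.354% of all genes tested. The log2 fold change was 0.66 (95% interval 0.24 to 1.08). Bcl11b, also called Ctip2, is a transcription factor of deep-layer neurons that project below the cortex. Its levels were 42.8, 28.4, 45.1 and 39.8 CPM in Fear-Only and 11.9, 29.0, 30.9, 30.8 and 25.4 CPM in Context-Only animals. Fear-Only animal 2 fell within the Context-Only range, whose low end was Context-Only animal 2. The log2 fold change was 0.72 (95% interval 0.26 to 1.17), and 0.54 without that animal. The gene of this symbol lies on chromosome 12 between 107910403 and 108003602 in GENCODE vM21 (GRCm38).

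Stk39, a kinase that regulates chloride cotransporters, was at 44.5, 29.3, 39.6 and 46.5 CPM in Fear-Only and 14.4, 32.8, 34.6, 20.03 and 30.8 CPM in Context-Only animals. Fear-Only animal 2 alone fell among the Context-Only values (log2 fold change 0.72, 95% interval 0.20 to 1.24). Srrm2, a splicing factor and scaffold of nuclear speckles, was at 209.8, 208, 194.7 and 146.3 CPM against 100.95, 188, 181.99, 101.3 and 115.3 CPM (log2 fold change 0.50, 95% interval 0.15 to 0.85). Its groups overlapped through Fear-Only animal 5 and Context-Only animals 3 and 4. The other named genes were Ttc33 (0.50) and Ppil2 (0.46, a ubiquitin ligase of the cyclophilin family), and 1 gene of the set has only a predicted name.

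Among genes lower in Fear-Only with a mean log2 CPM of 5 or more, Srgap3 had the smallest p. Srgap3 is a GTPase-activating protein that shapes neuronal branches and spines. It stood at 24.5, 38.1, 53.2 and 25.6 CPM in Fear-Only and 117.2, 60.4, 74.8, 46.8 and 60.5 CPM in Context-Only animals, or 35.4 ± 13.4 CPM (SD, n = 4) against 71.95 ± 27.2 CPM (SD, n = 5). Only Fear-Only animal 3 and Context-Only animal 5 crossed between the groups. The log2 fold change was -0.94 (95% interval -1.49 to -0.38), and -0.77 without Context-Only animal 2. Tmub1, a membrane protein with a ubiquitin-like domain, was the member of this set whose groups did not overlap. It was at 43.3, 55.7, 50.7 and 36.3 CPM in Fear-Only and 88.8, 57.02, 64.7, 65.1 and 61.1 CPM in Context-Only animals (log2 fold change -0.57, 95% interval -0.97 to -0.18). Over all genes tested, 0.337% lay apart with Fear-Only below.

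Tubgcp2, a subunit of the gamma-tubulin complex from which microtubules grow, stood at 31.4, 26.9, 26.8 and 28.7 CPM against 47.8, 29.3, 49.5, 56.0 and 45.4 CPM. The Context-Only animals except animal 3 lay above all Fear-Only animals (log2 fold change -0.65, 95% interval -1.10 to -0.20). Cdk2ap2, related to an inhibitor of a cell-cycle kinase, stood at 29.4, 44.4, 35.95 and 32.4 CPM against 88.6, 46.8, 42.3, 43.3 and 63.9 CPM, with only Fear-Only animal 2 among the Context-Only values. The remaining log2 fold changes were -0.72 for Mtg1, a GTPase of mitochondrial ribosome assembly, -0.58 for Thoc7, a subunit of an mRNA export complex, -0.73 for Rsrc1, a splicing factor, and -0.72 for Thap7, a transcriptional repressor. Without the mouse number as a block, Thoc7 had -0.27. Context-Only animal 2 had the highest value of all 9 animals in Srgap3, Thoc7, Cdk2ap2, Rsrc1, Tmub1 and Thap7.

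**Figure D2:**
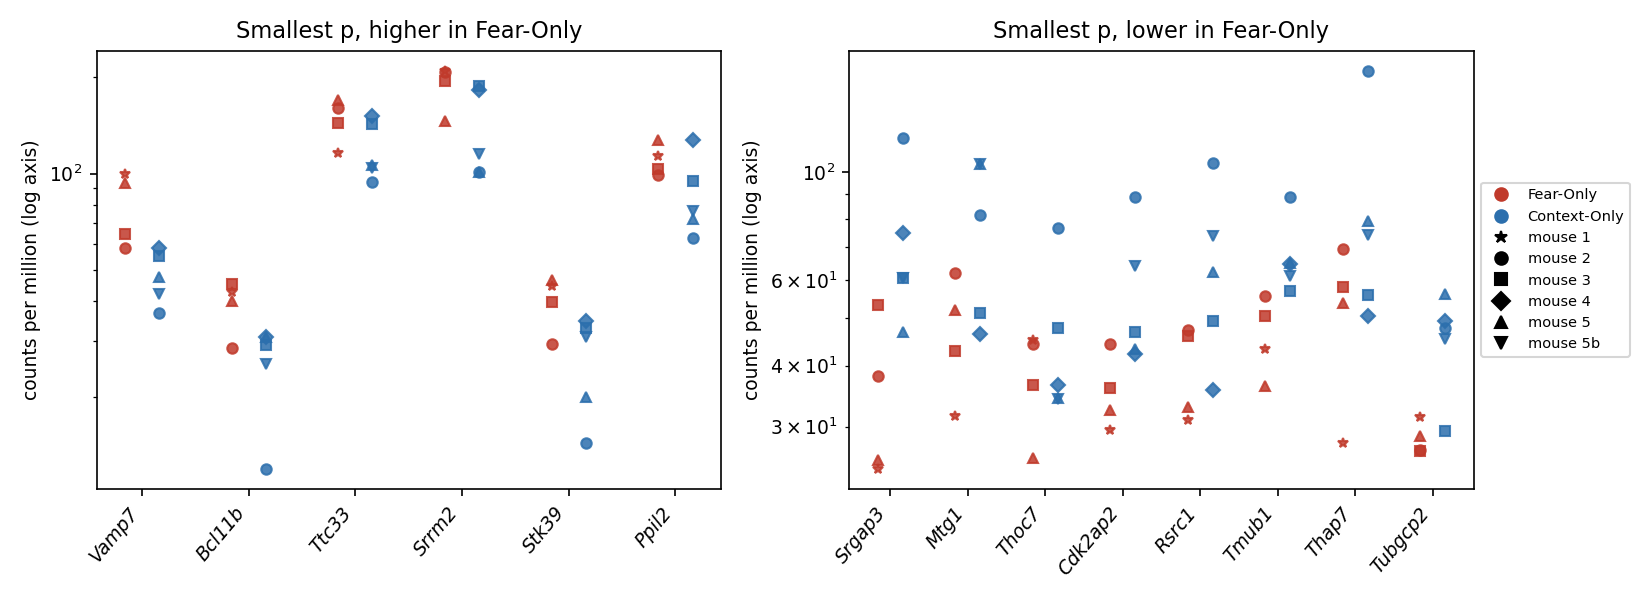
Level in each animal (CPM, log axis) of the 14 named genes of smallest p, those higher in Fear-Only on the left and those lower on the right. Colour gives the condition and the symbol the mouse number. Vamp7 and Tmub1 do not overlap between the groups, and Context-Only animal 2 lies at the edge of most of these genes.

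Of 36 immediate early genes, 36 were tested and 0 passed. Their median log2 fold change was -0.11, against -0.01 over all genes, and 14 lay above 0 (-0.11 with 13 of 36 above 0 without Context-Only animal 2). In 0 of the 36 were the groups apart. Of the 5117 genes of higher level, 42.5% lay above 0. In reporter-free cells the median of the 36 genes was -0.13, with 10 above 0. In the test of interaction described below it was 0.10, with 21 above 0. Fos, the gene that drives the TRAP2 recombinase, was at 326, 650.0, 180.4 and 159.2 CPM in Fear-Only and 320.3, 357, 372, 296 and 301 CPM in Context-Only animals. The Context-Only animals lay close together, Fear-Only animal 1 lay among them, animal 2 above and animals 3 and 5 below. The log2 fold change was 0.02 (95% interval -0.84 to 0.88), and ranged from -0.59 to 0.40 when single animals were left out. Fos counts were present in 74.4% to 95.04% of the reporter-read cells of each Fear-Only animal and in 83.3% to 92.05% of those of each Context-Only animal. Fos and Arc were added to the named genes after their values were seen.

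Arc, which encodes a capsid-like protein that weakens synapses by drawing in AMPA receptors, was at 248, 122.6, 124.3 and 174.3 CPM in Fear-Only and 172.7, 154.2, 237, 220.5 and 802 CPM in Context-Only animals. Context-Only animal 5b stood far above the rest and the other 8 animals overlapped. In that animal Arc counts came from 35 of 46 cells, with 54.2% of them in 5 cells. The log2 fold change was -0.56 (95% interval -1.55 to 0.44, and -0.23 with Fear-Only 5 left out and -0.05 with Context-Only 5b left out).

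Egr4, a zinc-finger transcription factor of the Egr family, had the smallest p of the list. It stood at 35.2, 38.1, 18.1 and 53.9 CPM in Fear-Only and 42.7, 28.4, 17.3, 128 and 143.8 CPM in Context-Only animals. Context-Only animals 5 and 5b lay above all others, while Context-Only animals 2, 3 and 4 lay within or just below the Fear-Only range. The log2 fold change was -0.60 (95% interval -1.19 to -0.01, and -0.36 with Fear-Only 5 left out), and -0.19 in cells of the pos gate, which holds neither the animals numbered 5 nor Fear-Only animal 1. Without the mouse number as a block, the log2 fold change of Egr4 was -0.99. In Context-Only animal 5, 42.6% of the Egr4 counts came from 1 cell. Egr1, of the same family and a standard marker of activity in memory circuits, was at 482, 719, 362 and 755 CPM against 617, 670.0, 547, 1078 and 1235 CPM (log2 fold change -0.33, 95% interval -0.76 to 0.11, and -0.49 with Fear-Only 2 left out and -0.15 with Fear-Only 3 left out). Again Context-Only animals 5 and 5b were highest and the others mixed.

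Npas4, a factor switched on by calcium entry that adjusts inhibitory synapses, was at 22.3, 17.7, 10.8 and 20.01 CPM against 39.4, 17.3, 28.2, 15.5 and 34.3 CPM. The Fear-Only animals fell within the Context-Only range except animal 3, which lay below it (log2 fold change -0.44, 95% interval -1.14 to 0.27, and -0.25 with Fear-Only 2 left out and -0.25 with Context-Only 5b left out). Scg2, a secretory granule protein induced by activity, lay on the other side of 0. It was at 1094, 713, 943 and 683 CPM against 579.7, 861, 682, 658 and 601 CPM, with Context-Only animal 3 alone among the Fear-Only values (log2 fold change 0.32, 95% interval -0.05 to 0.70, and 0.49 with Fear-Only 5 left out).

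**Figure D3:**
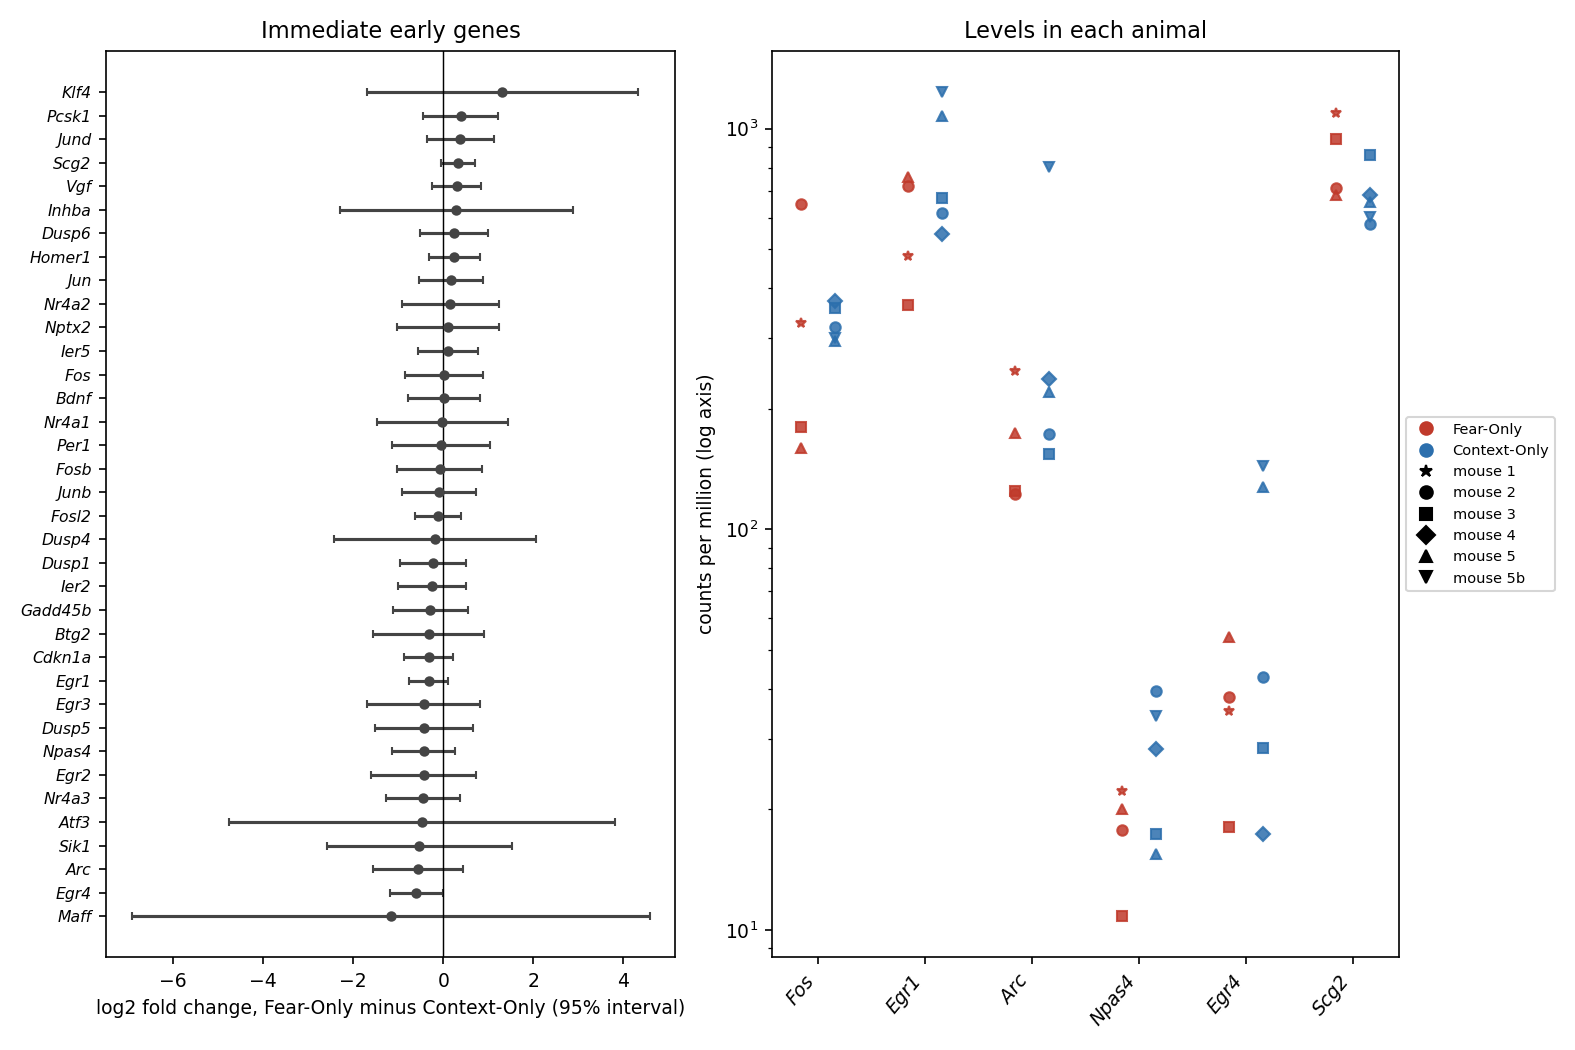
Left, log2 fold change of 36 immediate early genes (Fear-Only minus Context-Only) with 95% intervals from edgeR. Right, level of 6 of them in each animal (CPM, log axis), with colour for condition and symbol for mouse number. In the left part 14 genes lie to the right of 0, and the interval of Egr4 ends just below 0; the right part shows Arc highest in Context-Only 5b at 802 CPM.

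The median log2 fold change of deep-layer excitatory markers was 0.45, with 8 of 11 above 0 and 0 passing. Without Context-Only animal 2 the median was 0.34 and 7 of 11 lay above 0. Beside Bcl11b, the smallest p was that of Syt6, a synaptotagmin typical of corticothalamic neurons of layer 6. Syt6 stood at 56.2, 19.6, 19.1 and 60.4 CPM in Fear-Only and 5.83, 22.6, 26.9, 14.6 and 11.5 CPM in Context-Only animals. Fear-Only animals 1 and 5 lay above all others, and Fear-Only animals 2 and 3 lay within the Context-Only range (log2 fold change 1.43, 95% interval 0.54 to 2.33). The median of upper-layer markers was 0.25, with 5 of 8 above 0, and 0.02 without Context-Only animal 2. Calb1, a calcium buffer also found in interneurons, had a log2 fold change of 0.89 (95% interval -0.19 to 1.98, and 0.60 with Context-Only 5 left out), and Cux1, an upper-layer transcription factor, of 0.36 (-0.26 to 0.97, and 0.19 with Context-Only 2 left out and 0.64 with Context-Only 3 left out). Of the 8 general excitatory markers 2 lay above 0 and the median was -0.06 (-0.05 with 4 of 8 above 0 without Context-Only animal 2). The smallest p there was that of Slc30a3, which loads zinc into glutamate vesicles, at 49.9, 229.9, 180.7 and 209.6 CPM against 226.5, 228, 290.9, 326 and 414 CPM. Fear-Only animal 1, whose inhibitory share was the highest, had the lowest value, Fear-Only animals 3 and 5 also lay below all Context-Only animals, and Fear-Only animal 2 just above the lowest of them (log2 fold change -0.64, 95% interval -1.19 to -0.09).

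The median of inhibitory neuron markers was 0.33, with 10 of 12 above 0 and 0 passing. Without Context-Only animal 2 the median was 0.16 with 9 of 12 above 0. The summed CPM of the 12 markers was 2682, 1046, 1352 and 1035 in Fear-Only and 543, 1081, 1428, 1611 and 1136 in Context-Only animals, highest in Fear-Only animal 1 and lowest in Context-Only animal 2. In such sums, fewer cells of a type and less RNA per cell cannot be told apart. Dlx6, a homeobox factor of interneurons, was the member whose groups did not overlap, at 9.19, 8.29, 8.15 and 10.9 CPM against 2.503, 8.03, 2.79, 1.86 and 2.11 CPM, though Context-Only animal 3 came close to the lowest Fear-Only value (log2 fold change 1.33, 95% interval -0.50 to 3.16). Over all genes tested, 0.354% lay apart with Fear-Only above. Gad2, which makes GABA at synaptic terminals, was at 288.2, 257.6, 328 and 151 CPM against 108.4, 287.8, 261.5, 199.4 and 95.6 CPM, with overlap (log2 fold change 0.58, 95% interval -0.02 to 1.18). Within the inhibitory-neuron-like cells alone the median of the 12 markers was 0.10, with 7 above 0.

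Of 22 genes of GABA synthesis, transport and receptors, 16 lay above 0 (median 0.15) and 0 passed. Without Context-Only animal 2 this became 11 of 22, with a median of 0.01. Gabra5, an extrasynaptic GABA-A receptor subunit, had a log2 fold change of 0.49 (95% interval -0.19 to 1.17, and 0.74 with Fear-Only 2 left out and 0.29 with Context-Only 2 left out). For neuropeptides the median was 0.38 with 13 of 20 above 0, and 0.19 without Context-Only animal 2. Vip itself was among the most abundant transcripts, at 8066, 10044, 9021 and 2554 CPM in Fear-Only and 4210.0, 9621, 4529, 5834 and 4087 CPM in Context-Only animals. Fear-Only animal 5 was lowest and Fear-Only animal 2 highest (log2 fold change 0.28, 95% interval -0.67 to 1.23, and 0.19 with Fear-Only 1 left out, -0.24 with Fear-Only 2 left out, 0.75 with Fear-Only 5 left out and 0.12 with Context-Only 2 left out).

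Sst, the peptide of the dendrite-targeting interneurons, was at 1536, 1225, 372 and 349 CPM in Fear-Only and 818, 786, 400.4, 0 and 0.773 CPM in Context-Only animals. Context-Only animals 5 and 5b lacked it or nearly so, and the other 7 animals overlapped. Sst rested on few cells: 1 cell held 99.99% of the Sst counts of Context-Only animal 2 and 1 cell held 99.7% of those of Fear-Only animal 5. Vip and Sst were named after their values were seen. Crhbp, which binds the stress hormone CRH, was likewise at or near 0 in Context-Only animals 5 and 5b, at 44.1, 309.9, 63.5 and 78.3 CPM against 204.1, 102, 225, 0 and 2.71 CPM (log2 fold change 2.83, 95% interval -0.42 to 6.08, and -0.53 with Fear-Only 5 left out), and -0.05 in cells of the pos gate. Without the mouse number as a block, the log2 fold change of Crhbp was 0.22. The median of the Sst list was 0.73, with 4 of 6 above 0, and 0.10 with 3 of 6 above 0 without Context-Only animal 2. Cort, a peptide related to somatostatin, had 1.15 (95% interval -0.25 to 2.55, and 0.38 with Fear-Only 2 left out and 0.58 with Context-Only 2 left out). The Vip list had a median of 0.22 (4 of 6 above 0), the Ndnf and Lamp5 list 0.15 (4 of 6) and the Pvalb list 0.38 (5 of 6). Without Context-Only animal 2 these medians were -0.01 (3 of 6), 0.14 (3 of 6) and 0.57 (4 of 6), so that the median of the Vip list changed sign. Igf1, a growth factor of Vip interneurons, had 0.75 (-0.08 to 1.59, and 0.48 with Fear-Only 2 left out and 1.17 with Fear-Only 5 left out), and Npy, of the Ndnf and Lamp5 list, 0.48 (-0.32 to 1.27, and 0.21 with Context-Only 5 left out).

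Genes of vesicle fusion and exocytosis were balanced, with 20 of 45 above 0, a median of -0.03 and 0 passing (0.01 with 24 of 45 above 0 without Context-Only animal 2). Cplx1, a complexin that holds docked vesicles ready for calcium, stood at 501, 389, 539 and 469 CPM in Fear-Only and 353, 449.9, 383, 344 and 340.0 CPM in Context-Only animals. The Fear-Only animals lay at the upper end, with animal 2 below the highest Context-Only value (log2 fold change 0.29, 95% interval 0.04 to 0.54). Syt2, the list's member of smallest p, was detected at 0, 0.400, 0.0932 and 0 CPM in Fear-Only and at 0 in all 5 Context-Only animals, levels at which no fold change is given.

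For glutamate receptor and postsynaptic density genes the median was 0.06, with 21 of 36 above 0 and 0 passing (0.02 with 19 of 36 above 0 without Context-Only animal 2). Dlg3, a scaffold that anchors NMDA receptors, was at 2.30, 15.6, 11.7 and 4.14 CPM against 26.6, 17.4, 21.2, 21.2 and 11.3 CPM. Fear-Only animals 1 and 5 lay lowest, and Context-Only animal 5b alone lay below Fear-Only animals 2 and 3 (log2 fold change -1.25, 95% interval -2.19 to -0.30). Grik1, a kainate receptor subunit rich in interneurons, had a log2 fold change of 1.09 (-0.18 to 2.36). It was at 90.8 CPM in Fear-Only animal 1 and at most 32.5 CPM in the other 8 animals.

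Of 28 synaptic adhesion genes 16 lay above 0 (median 0.07) and 0 passed (0.07 with 15 of 28 above 0 without Context-Only animal 2). Tenm4, a teneurin that pairs partner neurons, did not overlap between groups, at 40.1, 43.6, 42.6 and 42.5 CPM against 68.2, 52.6, 64.6, 93.6 and 71.2 CPM. The 4 Fear-Only values were nearly equal and all lay below the lowest Context-Only value (log2 fold change -0.56, 95% interval -1.02 to -0.09). Over all genes tested, 0.337% lay apart in this direction. Lrrtm2, a postsynaptic partner of neurexins, was at 59.2, 25.3, 32.6 and 68.3 CPM against 11.2, 28.2, 34.6, 48.7 and 28.7 CPM, with overlap and with Context-Only animal 2 lowest (log2 fold change 0.78, 95% interval 0.11 to 1.46).

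Ion channel lists were centred on no difference. Sodium, calcium and HCN channels had a median of -0.05 (10 of 26 above 0) and potassium channels -0.0017 (17 of 34), with 0 passing in either. They were -0.05 with 10 of 26 above 0 and -0.03 with 14 of 34 above 0 without Context-Only animal 2. Cacna1g, a T-type calcium channel, did not overlap between groups, at 12.1, 16.5, 21.1 and 18.5 CPM against 26.1, 21.5, 32.6, 34.5 and 25.4 CPM, though Fear-Only animal 3 and Context-Only animal 3 nearly met (log2 fold change -0.58, 95% interval -1.21 to 0.06). Over all genes tested, 0.337% lay apart with Fear-Only below. Kcnd2, of the transient A-type current, had 0.43 (-0.10 to 0.95, and 0.20 with Fear-Only 5 left out), and Kcnab2, an auxiliary subunit, -0.42 (-0.94 to 0.09, and -0.26 with Context-Only 2 left out).

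Lists of transcriptional regulators were also near 0. The CREB pathway, which carries calcium and cAMP signals to the nucleus, had a median of 0.01 with 12 of 24 above 0 (-0.02 with 10 of 24 above 0 without Context-Only animal 2). Prkar2b, a regulatory subunit of protein kinase A, had 0.37 (95% interval -0.07 to 0.80) and Rps6ka3, a kinase that phosphorylates CREB, 1.36 (-0.32 to 3.03, and 0.42 with Fear-Only 5 left out). Chromatin and DNA methylation regulators had a median of 0.11 with 15 of 23 above 0 (0.07 with 14 of 23 above 0 without that animal). Dnmt1, the maintenance methyltransferase, had 0.52 (-0.11 to 1.15, and 0.15 with Fear-Only 5 left out) and Kmt2a, a histone H3 lysine methyltransferase, 0.30 (-0.10 to 0.70, and 0.45 with Fear-Only 2 left out, 0.16 with Fear-Only 5 left out and 0.17 with Context-Only 5 left out). For glucocorticoid receptor targets the median was -0.05 with 6 of 13 above 0, and the median changed sign to 0.11 with 7 of 13 above 0 without that animal. Sgk1, a kinase induced by glucocorticoids, had 0.57 (-0.03 to 1.18, and 0.35 with Fear-Only 1 left out) and Zbtb16 0.42 (-0.08 to 0.91, and 0.66 with Fear-Only 5 left out). In each of these lists 0 genes passed, and the values of Rps6ka3, Dnmt1 and Kmt2a changed sign in cells of the pos gate. Without the mouse number as a block, Zbtb16 had 0.08 and Dnmt1 0.19.

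Nuclear genes for ribosomes, the respiratory chain and the proteasome lay together slightly below 0. The median log2 fold change was -0.21 for 77 ribosomal protein genes (74 below 0), -0.16 for 75 oxidative phosphorylation genes (70 below) and -0.19 for 31 proteasome subunits (28 below), with 0 passing in any. In 0 of these genes were the groups apart. The medians were smaller in size without Context-Only animal 2, but most ribosomal and proteasome genes stayed below 0. The summed ribosomal protein level was 12624, 21839.7, 16528 and 12477 CPM in Fear-Only and 31331, 17848, 11739, 11461 and 13798 CPM in Context-Only animals. Animals numbered 2 were highest in both conditions, Context-Only animal 2 most of all, and the remaining Context-Only animals lay within the Fear-Only range or just below it. Without Context-Only animal 2 the medians were -0.07, -0.01 and -0.10, and 21 of 77, 34 of 75 and 4 of 31 genes lay above 0.

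Rpsa, a protein of the small ribosomal subunit, was at 308, 407, 354 and 248 CPM against 591, 397, 335, 365 and 391 CPM (log2 fold change -0.42, 95% interval -0.77 to -0.08). Rplp0, of the large subunit, had -0.40 (-0.76 to -0.03, and -0.25 with Context-Only 2 left out). Ndufs7, a complex I subunit, was at 361, 626, 416 and 255.9 CPM against 1341, 455, 391, 257 and 369 CPM, with Context-Only animal 2 at over 2 times any other animal (log2 fold change -0.50, 95% interval -0.92 to -0.08, and -0.27 with Context-Only 2 left out). Ndufs8, of the same complex, had -0.49 (-0.95 to -0.04). Psmb5, a catalytic proteasome subunit, had -0.53 (-0.94 to -0.12) and Psmb4 -0.35 (-0.65 to -0.06, and -0.24 with Context-Only 2 left out). The 13 genes encoded in the mitochondrion had a median of 0.03, with 7 above 0 (0.13 with 7 of 13 above 0 without Context-Only animal 2). Of these mt-Co1, of complex IV, had 0.26 (0.01 to 0.50) and mt-Nd5, of complex I, 0.17 (-0.09 to 0.43, and 0.08 with Fear-Only 5 left out). Without the mouse number as a block, mt-Co1 had 0.05 and mt-Nd5 0.05.

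**Figure D4:**
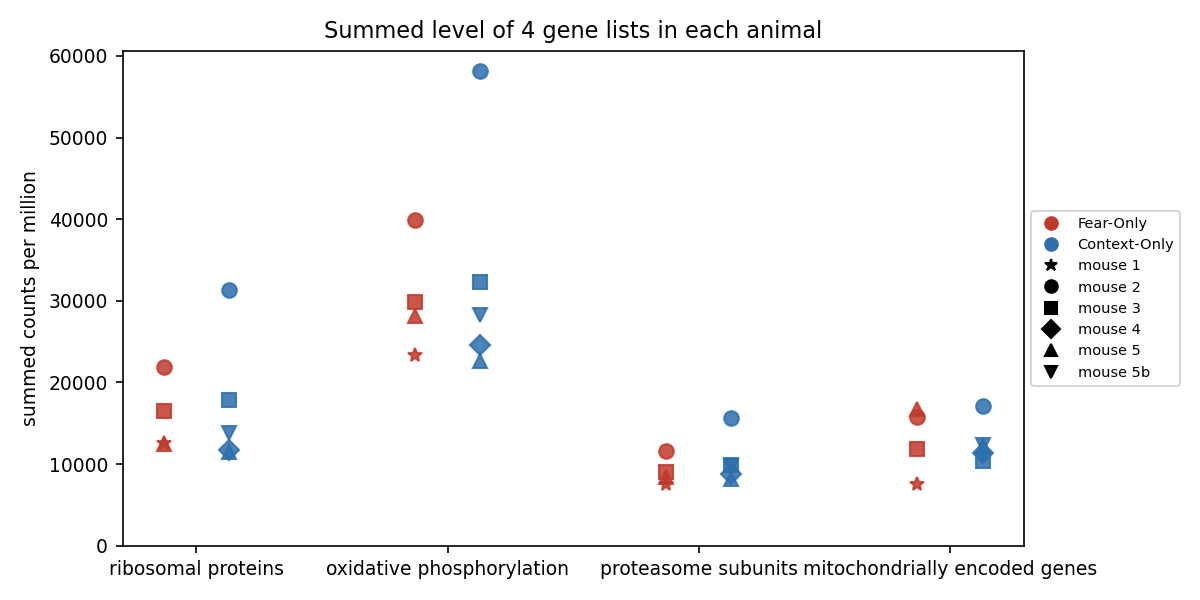
Summed CPM of 4 gene lists in each animal, on a linear axis from 0, with colour for condition and symbol for mouse number. Context-Only animal 2 is highest for ribosomal proteins, at 31331 CPM, and for oxidative phosphorylation, at 58114 CPM.

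For cholesterol synthesis and transport the median was 0.07 with 16 of 27 above 0, and for heat-shock proteins and chaperones -0.05 with 6 of 18 above 0. Leaving out Context-Only animal 2 gave 0.0017 with 14 of 27 above 0 and -0.04 with 8 of 18 above 0. Neither list held a gene that passed. Tm7sf2, a reductase late in cholesterol synthesis, was at 25.6, 38.5, 23.4 and 37.1 CPM against 16.03, 23.9, 17.1, 20.1 and 22.3 CPM, with Fear-Only animal 3 just inside the Context-Only range (log2 fold change 0.67, 95% interval 0.11 to 1.23, and 0.40 with Fear-Only 2 left out). Abca1, a cholesterol exporter, was at 0, 1.21, 0.816 and 1.40 CPM against 0.0300, 0.361, 0.0159, 0 and 0 CPM, too low for a fold change to be given. Hspe1, a mitochondrial chaperonin, had -0.34 (-0.68 to -0.0011, and -0.22 with Context-Only 2 left out), with Context-Only animal 2 highest at 349 CPM. Hspa1b, a stress-induced heat-shock protein that dissociation can raise, was below 1 CPM in all 9 animals. This 1 gene does not measure a response to dissociation as a whole, and none was tested for the immediate early genes.

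**Figure D5:**
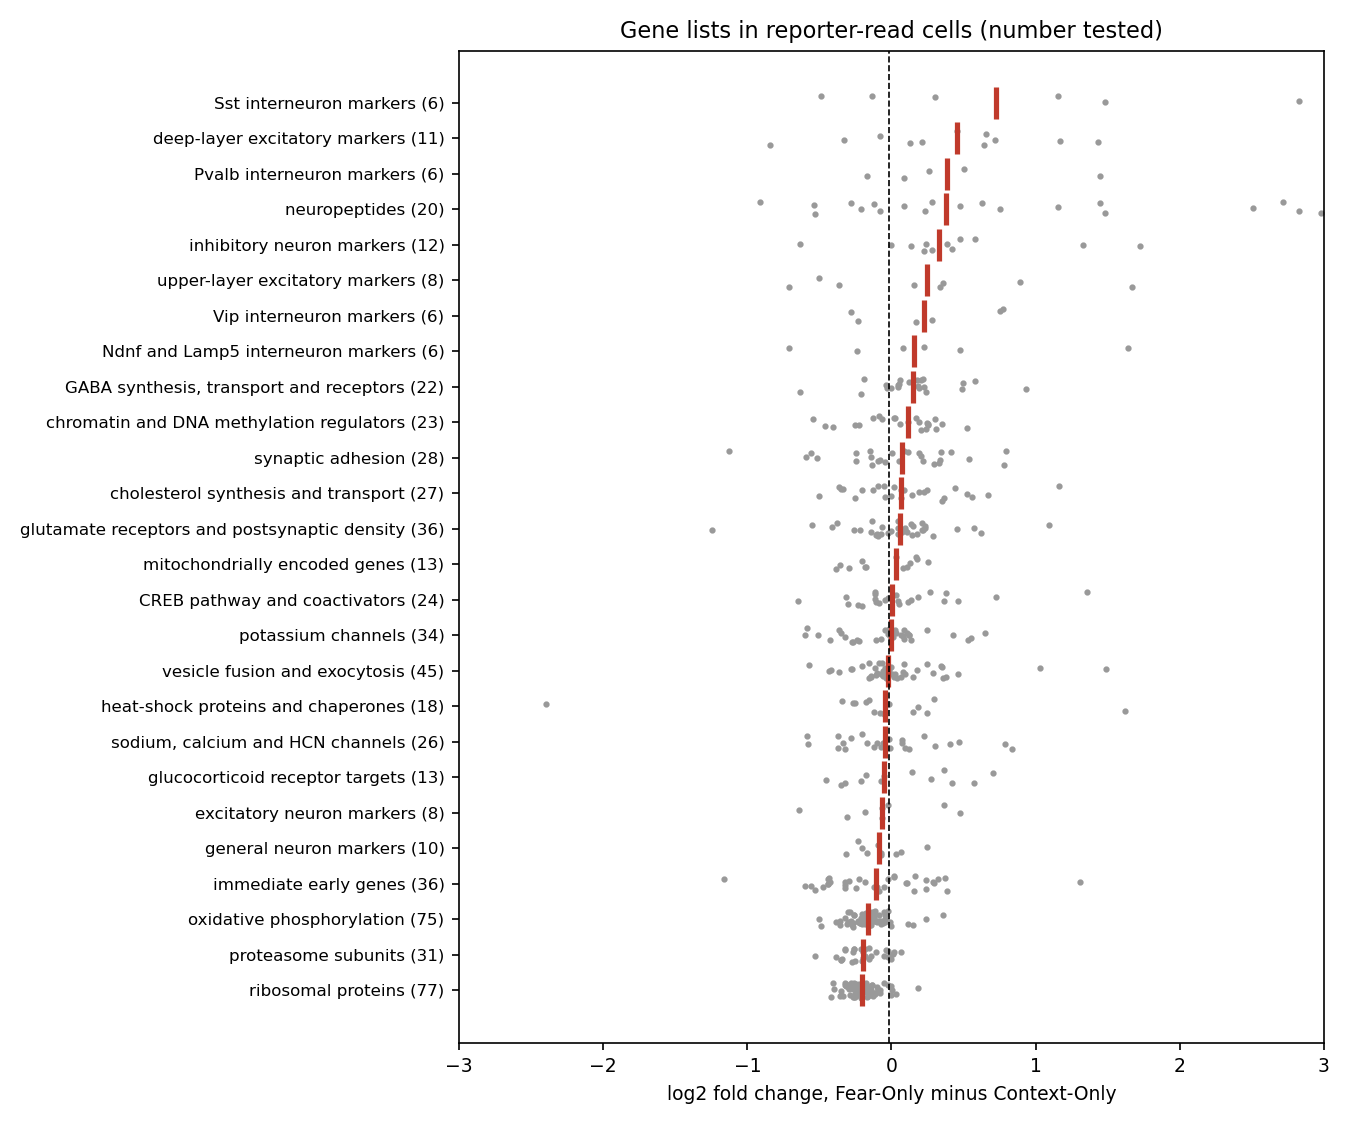
Log2 fold change (Fear-Only minus Context-Only) of the tested members of 26 gene lists, 1 grey point per gene, with the median of each list as a red bar. The dashed line is the median of all genes tested, at -0.01, and 5 points beyond 3 log2 units are not drawn. The ribosomal, proteasome and oxidative phosphorylation lists lie narrowly to the left, and lists of interneuron and layer markers spread widely.

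Markers of other cell types were low. The summed CPM of 10 astrocyte markers was 392 to 617 in Fear-Only and 543 to 609.9 in Context-Only animals, with 7 of 10 log2 fold changes above 0 (median 0.18, and 0.11 with 6 of 10 above 0 without Context-Only animal 2). For 10 oligodendrocyte markers the sums were 63.8 to 171.2 and 107 to 485 CPM, with 1 of 9 tested above 0 (median -0.96, and -0.81 with 2 of 9 above 0 without Context-Only animal 2). Mbp, the myelin basic protein, made up most of it, at 58.7, 37.7, 125 and 45.2 CPM against 425, 95.2, 97.7, 70.9 and 135 CPM, and 69.7% of its counts in Context-Only animal 2 lay in 1 cell. Oligodendrocyte precursor markers summed to 0 to 1.12 and 0.108 to 3.46 CPM. Their part in the comparisons above was not tested.

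Microglia markers, all 10 with a fitted log2 fold change above 0, were low in both groups. Their summed CPM was 36.9 to 47.8 in Fear-Only and 25.2 to 49.3 in Context-Only animals. C1qa and C1qc, complement subunits made by microglia, were at 0, 2.30, 3.48 and 0 and 0, 0.613, 2.35 and 0 CPM in Fear-Only animals. In Context-Only animals they were at 0, 0.0119, 0, 0 and 0.787 and 0, 0, 0.0239, 0 and 0 CPM. The C1qc counts in Fear-Only came from 3 of 121 cells in animal 2 and 11 of 268 cells in animal 3. At least 5 of the microglia markers were found in 1 and 3 cells of these animals and in 0 cells of the others. Endothelial and mural markers summed to 3.36 to 23.9 CPM in Fear-Only and 0.692 to 6.01 in Context-Only animals. Rgs5, a pericyte marker, was highest of these in Fear-Only animal 3 at 20.2 CPM. The 10 general neuron markers had a median of -0.08, with 3 above 0 (-0.07 with 3 of 10 above 0 without Context-Only animal 2).

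Within the excitatory-neuron-like reporter-read cells, 17725 genes were tested and 0 passed edgeR's quasi-likelihood test at an adjusted p of 0.05 (0%). At an unadjusted p below 0.05 there were 536 genes, and DESeq2 called 52 (0.293%). Among higher genes with a mean log2 CPM of 5 or more in these cells, Bcl11b had the smallest p, at 39.1 to 66.2 CPM in Fear-Only against 12.7 to 40.05 in Context-Only (log2 fold change 1.04, 95% interval 0.51 to 1.57). Its ranges met at their ends, and it was the gene named here that DESeq2 also called in these cells. Lmo3, a LIM-only transcriptional cofactor, was at 90.3 to 237 CPM in Fear-Only against 51.8 to 102 in Context-Only (log2 fold change 0.70, 95% interval 0.30 to 1.09). Nfia, a nuclear factor I protein, was at 48.5 to 74.2 CPM in Fear-Only against 14.4 to 38.2 in Context-Only (log2 fold change 1.06, 95% interval 0.39 to 1.73, and 0.59 with Fear-Only 5 left out), and Stk39 had 0.87 (0.37 to 1.38).

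On the lower side in excitatory cells, Echdc2, an enzyme of the enoyl-CoA hydratase family, was at 12.2 to 29.9 CPM in Fear-Only against 29.8 to 81.4 in Context-Only (log2 fold change -1.27, 95% interval -2.06 to -0.48). Rsrc1 had -0.91 (-1.46 to -0.36), Orc6, a subunit of the origin recognition complex, -0.71 (-1.15 to -0.26) and Ift20, of intraflagellar transport, -0.58 (-0.95 to -0.21). For deep-layer markers in these cells the median was 0.53 with 9 of 11 above 0, and for immediate early genes -0.14 with 16 of 36 above 0. None of these genes passed.

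Within the inhibitory-neuron-like reporter-read cells, 16462 genes were tested and 0 passed edgeR's test (0%). There were 496 at an unadjusted p below 0.05, and DESeq2 called 238 (1.45%). With 20 or more cells required per sum, which left 2 Fear-Only animals (2 and 3) and 2 Context-Only animals (3 and 4), edgeR called 1 gene. It was Eno1b, an enolase copy close in sequence to Eno1, so reads may be split between them. Its adjusted p in edgeR was 0.0179 there, and the lowest under the other settings run was 0.247 (DESeq2). Setd5, a chromatin regulator linked to intellectual disability in humans, was at 53.7 to 89.8 CPM in Fear-Only against 24.6 to 52.7 in Context-Only (log2 fold change 1.33, 95% interval 0.43 to 2.23). Armc1 had 0.77 (0.25 to 1.29), Cnot9, of the deadenylation complex, 1.32 (0.39 to 2.25) and Fez2, of axon growth, 1.46 (0.42 to 2.51, and 0.73 with Fear-Only 5 left out). With 20 or more cells per sum Cnot9 was at 0.43 and Fez2 at 0.19.

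On the lower side in inhibitory cells, Pkib, an inhibitor of protein kinase A, was at 15.6 to 49.2 CPM in Fear-Only against 55.5 to 91.2 in Context-Only (log2 fold change -1.17, 95% interval -1.93 to -0.41), and DESeq2 called it. Mrps11, a mitochondrial ribosomal protein, had -0.99 (-1.63 to -0.36), Tmem14a -0.95 (-1.59 to -0.30) and Bex1, a small adaptor of neurotrophin signalling, -0.59 (-0.98 to -0.20). The median of immediate early genes in these cells was 0.12 with 22 of 36 above 0, and none passed.

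The 867 reporter-free cells of the same conditions set a comparison beside these values. In them 18274 genes were tested and 0 passed edgeR's test (0%), with 596 at an unadjusted p below 0.05 and 43 (0.235%) called by DESeq2. Fear-Only animal 1 had no reporter-free cell and Fear-Only animal 4 entered here. Pafah1b3, a catalytic subunit of an acetylhydrolase that acts in neuronal migration, was at 20.4 to 67.9 CPM in Fear-Only against 60.8 to 161 in Context-Only (log2 fold change -1.23, 95% interval -1.81 to -0.64), and DESeq2 called it. In reporter-read cells its log2 fold change was 0.16 (-0.22 to 0.53, and 0.0028 with Fear-Only 2 left out, 0.24 with Fear-Only 5 left out and 0.01 with Context-Only 2 left out). Ccnd2, a cyclin, had -0.99 (-1.55 to -0.43) in reporter-free cells against -0.43 in reporter-read cells (-0.66 with Fear-Only 2 left out and -0.11 with Fear-Only 5 left out). Bex1 had -0.63 (-1.002 to -0.26) against -0.43 (-0.22 with Fear-Only 5 left out), and Washc3, of an endosomal actin complex, -0.82 (-1.32 to -0.32) against -0.57 (-0.37 with Context-Only 2 left out). On the higher side in reporter-free cells Prune2 had 0.75 (0.33 to 1.18), Frat1, of Wnt signalling, 0.71 (0.25 to 1.16), Rabl6 0.58 (0.20 to 0.95) and Fut9, a fucosyltransferase, 0.46 (0.15 to 0.77). The ribosomal list had a median of -0.31 in reporter-free cells, with 3 of 77 above 0.

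Whether the condition difference was particular to reporter-read cells was tested as an interaction within animals, over 32 sums of 16 animals. Those of the compared conditions were Fear-Only animals 2, 3 and 5 and the 5 Context-Only animals. Of 19958 genes 0 passed edgeR's test (0%), 496 had an unadjusted p below 0.05 and DESeq2 called 5 (0.0251%). Of these 5, 2 have only predicted names and the others were Abca1, St18 and Cyp26b1. Among well-expressed genes the smallest p was that of Slc25a23, a mitochondrial carrier, with an interaction of -0.84 (95% interval -1.28 to -0.39). The sign means that the condition difference was more negative in reporter-read than in reporter-free cells. Its reporter-read levels were 21.5, 23.02 and 39.6 CPM in these Fear-Only animals and 38.6, 29.2, 34.0, 68.3 and 51.3 CPM in Context-Only animals, with overlap through Fear-Only animal 5. Gbf1, a factor of Golgi trafficking, had -0.87 (-1.37 to -0.37) and Etv5, an ETS transcription factor, -0.68 (-1.10 to -0.25, and -0.41 with Fear-Only 2 left out). On the other side stood Dut, which removes dUTP, at 0.79 (0.28 to 1.31), Dok5, a signalling adaptor, at 1.53 (0.53 to 2.53), Pafah1b3 at 1.18 (0.40 to 1.95) and Prelid3a at 0.94 (0.29 to 1.59). None of these passed.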

How the data were processed

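Cells from mouse medial prefrontal cortex were profiled one by one with Smart-seq2, and the authors deposited whole-number read counts per gene and cell. Per the submitters' processing notes, which give no roles or order, Bowtie 0.12.2 and builds mm8 and mm10 are named. No source used here names the read counter. Positions are of genes of the same symbol in GENCODE vM21 (GRCm38).

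The reporter row was left out, which left 23354 genes. Cells were clustered with scanpy 1.11.5 (on 30 principal components of 2000 variable genes, Leiden resolution 1) and each cluster was named by the higher of its excitatory and inhibitory marker means. Each cell had a library of its own and no doublet caller was run. Counts were summed per animal over 10 or more cells and tested with edgeR 4.0.16 (TMM scaling, filterByExpr at count 10 and total 15, quasi-likelihood test, Benjamini-Hochberg over all genes). One fit held 17 sums of all 4 conditions, with the mouse number as a block. DESeq2 1.42.0 and limma 3.58.1 were alternatives. The procedure was tested on simulated data. Shares were compared by exact permutation of animals, without the mouse number as a block.

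Pairing was checked by the correlation of deviations from the condition means over 5117 genes: it was 0.41 to 0.69 in 4 pairs of Fear-Only and Context-Only animals with the same number, and -0.61 to 0.50 in 16 other pairs. The highest of the other pairs were Fear-Only 2 with Context-Only 3 (0.50) and Fear-Only 1 with Context-Only 4 (0.44). The labels do not say that same-numbered animals are related.

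Members and gene lists were chosen with earlier results of these data known. Named genes are, where fewer than 4 passed in a direction, the 8 of smallest p whose mean log2 CPM was 5 or more (4 in the other fits), and 2 to 4 of smallest p from each list. Intervals are unadjusted. Some genes that this rule takes are not reported here.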

Additional observations from a re-analysis of the deposited data

Results flagged for a closer look

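Of the groups of 4 or 5 animals examined, 20 (14.9%) held a sample far from the others by Dixon's criterion, which chance meets in about 1 of 20. Context-Only animal 2 stood low for Bcl11b at 11.9 CPM and for Zbtb16 at 22.6 CPM. It stood high for Tmub1 (88.8 CPM), Thap7 (161 CPM), Rpsa (591 CPM), Rplp0 (617 CPM), Ndufs7 (1341 CPM), Ndufs8 (614 CPM), Psmb5 (564 CPM), Psmb4 (644 CPM), Washc3 (82.6 CPM) and Mbp (425 CPM). Context-Only animal 5b stood high for Arc at 802 CPM. Context-Only animal 3 stood apart for Pafah1b3 at 68.8 CPM. It stood high for Dlx6 at 8.03 CPM and for Igf1 at 231 CPM. Fear-Only animal 2 stood high for Crhbp at 309.9 CPM and for Psmb4 at 426 CPM. Fear-Only animal 1 stood high for Grik1 at 90.8 CPM and for the median reporter level of its reporter-read cells, at 249 CPM.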

How the results depend on the processing

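edgeR called 0 genes in each of the 5 fits under all its settings, except 1 gene in inhibitory cells with 20 or more cells per sum, where 2 animals stood against 2. DESeq2 called 36 genes in reporter-read cells, 43 in reporter-free cells, 5 in the interaction, 52 in excitatory and 238 in inhibitory cells; the cause was not tested. Without the replicate block, and with only the 2 conditions in the fit (the form without a block was chosen after seeing the data), edgeR also called 0 in reporter-read cells. The difference in inhibitory share kept its sign, between 1.47 and 8.76 points when single animals were left out, and passed the test under no setting.

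Of 1768 alternative log2 fold changes of 95 genes and fits, 1752 kept their sign. Fos reversed without the block (-7.36e-05), with only the 2 conditions and the block (-0.36), at a reporter count of 5 or more (-0.13) and by limma-trend (-0.10), and ranged from -0.59 to 0.40 when single animals were left out. Vip was -0.0049 with only the 2 conditions and the block, and ranged from -0.24 to 0.75 without single animals. Crhbp was -0.054 with the pos gate only and 0.22 without the block, and ranged from -0.53 to 3.70 without single animals. With the pos gate only, Rps6ka3 was -0.19, Dnmt1 -0.049, Kmt2a -0.053 and Sst -0.18.

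Sizes moved more than signs. Values fell to under the main one divided by 1.5, or reversed, for 26 of 80 with the pos gate only, 13 of 80 at a reporter count of 5 or more, 13 of 95 without the replicate block, 13 of 95 by limma-trend, 14 of 95 with only the 2 conditions and no block, 4 of 95 with the 2 conditions and the block, and 4 of 95 with 20 or more cells per sum. Values grew to over 1.5 times the main one for 6 of 80 with the pos gate only. This held for 6 of 95 without the replicate block, and for 6 of 95 with only the 2 conditions and no block. It held for 2 values each at a reporter count of 5 or more, by limma-trend, and with the 2 conditions and the block. Without the replicate block Arc was -0.92, Egr4 -0.99, Prkar2b 0.79 and Cort 2.54. With the pos gate only, Slc30a3 was -0.12, Cacna1g -0.10 and Cplx1 0.08. In inhibitory cells with 20 or more cells per sum, Mrps11 was -0.48 and Bex1 -0.14. Among the values that fell without the replicate block in reporter-read cells, Thoc7 was -0.27, Ttc33 0.30, Zbtb16 0.08 and Bex1 -0.10. The cause was not tested.

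The pos gate holds 2 Fear-Only and 3 Context-Only animals, so an exact test of shares cannot give a two-sided p below 0.2 there. No label ties replicates to separate litters or days. The sums of 30 to 56 cells, in 5 of 9 animals, let single cells carry a gene, as for Sst and Mbp.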

Other observations

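Some transcripts split by sets of mouse numbers, 2 and 3 against the others, rather than by condition. Prune2, in reporter-read cells, stood at 161, 730.3, 618 and 68.7 CPM in Fear-Only animals 1, 2, 3 and 5 and 519, 453, 46.3, 71.5 and 86.96 CPM in Context-Only animals 2, 3, 4, 5 and 5b. All animals numbered 2 and 3 lay above all others. Frat1 showed the same split, at 61.2, 102, 129 and 13.4 CPM and 106, 85.1, 10.8, 12.3 and 13.6 CPM, with Fear-Only animal 1 between the sets. These genes were noticed after their values were seen.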
